A study of Mus musculus with 8 samples.

Results

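The genes described here are the tumour suppressor gene *Trp53*, 4 target genes of p53 and the inhibitors of cyclin-dependent kinases (CDKs), taken as a group in mouse mesenchymal cells that were placed in adipogenic medium. The rule for membership was a list of gene symbols. They are *Trp53*, *Mdm2*, *Cdkn1a*, *Cdkn1b*, *Cdkn2a*, *Cdkn2b*, *Cdkn2c*, *Ccng1*, *Sesn1* and *Gadd45a*, which makes 10 of the 41325 genes listed. All 10 were found in every library, and 8 had an RPKM (reads normalised to exon length in kilobases and to the mapped reads of the library) over 1 in at least 1 library. *Cdkn2a* and *Cdkn2b* were listed at 0 throughout. *Cdkn1a* is also a p53 target, so the groups overlap.

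RNA-seq was done in C3H10T1/2 cells, an established line of mouse mesenchymal stem cells that can form fat cells. The control line carried a control short hairpin RNA (shControl, with the genotype given as WT), and the other 3 lines carried hairpins against *Kdm4d* (shKDM4D), *Nfib* (shNFIB) or *Kmt2a*, which encodes MLL1 (shMLL1). Each line was sequenced at day 0, when cells had been confluent for 2 days, and at day 5. That gives 8 libraries with 1 library per condition. All 4 lines were given the same hormones, which were insulin at 10 µg/ml, dexamethasone at 1 µM and isobutylmethylxanthine at 0.5 mM until day 2, followed by insulin alone for 2 days. The day 0 cells had not yet received them. The 3 knockdown lines were stable puromycin-resistant clones, and which clone was sequenced is not given in the sources used here. Whether shControl cells were selected or cloned in the same way is not given either. A difference between a knockdown line and shControl cells can therefore not be told apart from a difference between clones or in selection.

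p53 is a transcription factor that is held low by MDM2, a ubiquitin ligase that marks it for degradation. When cells are stressed, p53 accumulates and switches on genes that stop the cell cycle, repair DNA or slow growth, and it also switches on *Mdm2*, which closes a feedback loop. CDK inhibitors come in 2 families. The CIP/KIP proteins p21 (*Cdkn1a*) and p27 (*Cdkn1b*) bind cyclin-CDK complexes, and the INK4 proteins p16 (*Cdkn2a*), p15 (*Cdkn2b*) and p18 (*Cdkn2c*) bind CDK4 and CDK6 alone. In cultured preadipocytes the hormone mixture is known to bring arrested cells back into the cycle for a short time, after which they leave it again and fill with lipid.

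A response element for p53 is made of a pair of 10-base half-sites, and the members that hold one close to their start site are shown because they are the promoters in this group with a near-complete element. RefSeq promoter sequences of GRCm38.p6, from 250 bases before to 50 bases after each annotated start, were searched on both strands for a pair of adjoining p53 half-sites with at most 1 of 20 bases off the consensus. An element was found in 29 of 32851 windows (0.0883%). Of the 14 windows of the members, 2 held one, in *Cdkn1a* (chr17:29090923-29090952, plus strand) and in *Ccng1* (chr11:40755457-40755486, minus strand). The capitals mark the 20 bases of the element, read 5′ to 3′ on the strand of the gene.
Cdkn1a: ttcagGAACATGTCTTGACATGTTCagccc
Ccng1: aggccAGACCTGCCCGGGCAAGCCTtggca

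The first base in capitals lies at -51 from the nearest annotated start and at -2841 from the other in *Cdkn1a*, and at -195 from the start in *Ccng1*. A single half-site was present in 8.36% of all windows. Among the members it was found in the windows of *Trp53*, *Mdm2*, *Cdkn1a*, *Ccng1*, *Sesn1* and *Gadd45a*, and not in those of *Cdkn1b*, *Cdkn2a*, *Cdkn2b* and *Cdkn2c*. These matches describe letters in a short window. Whether p53 bound there was not measured.

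The libraries held between 15842221 and 38202580 mapped reads, recovered from the RPKM values. The deepest were those of shMLL1 cells and the shallowest that of shNFIB cells at day 5. *Nfib* RPKM was 9.92 in shControl and 2.31 in shNFIB cells at day 0, and 17.0 and 3.38 at day 5. *Kmt2a* RPKM was 5.17 at day 0 and 5.27 at day 5 in shControl cells, against 2.0 and 1.63 with the hairpin. *Kdm4d* was covered by 2 and 13 reads in shControl cells at day 0 and day 5, and by 1 and 4 reads in shKDM4D cells, so its knockdown at day 0 could not be seen at this depth. The summed RPKM of 7 mesenchymal markers was between 2149 and 2948, but *Thy1*, one of them, was between 0.02 and 0.14 in the shKDM4D and shNFIB libraries, against 25 and 22.6 in shControl cells and 11.8 and 11.1 in shMLL1 cells. The summed RPKM of 6 adipocyte markers at day 5 was 796 for shControl, 25.5 for shKDM4D, 0.94 for shNFIB and 2.86 for shMLL1 cells. At day 0 it was between 0.15 and 0.70. Markers of macrophages, endothelium, epithelium and skeletal muscle summed to at most 1.81 in any library. The 4 osteoblast markers summed to between 2.68 and 8.17, and the 3 chondrocyte markers to between 71.7 and 193. Of the 3 chondrocyte markers, 2 had an RPKM over 1 in at least 1 library, while *Acan* was at 0 in all but 1 library.

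The level of the members was moderate, and *Ccng1* stood above the others. Its RPKM was between 83.4 and 163, while the 8-library median was 30.8 for *Cdkn1a*, 26.7 for *Mdm2*, 20.7 for *Trp53*, 18.5 for *Cdkn1b*, 11 for *Gadd45a*, 10.7 for *Cdkn2c* and 8.72 for *Sesn1*. The members differed in how much they varied. The SD of log2 RPKM over the 8 libraries was 0.91 for *Gadd45a* and 0.73 for *Sesn1*, against 0.33 to 0.49 for the other 6. Across 11247 expressed genes with reads in every library, the median SD was 0.36 and the quartiles were 0.24 and 0.59. *Gadd45a* and *Sesn1* were thus above the upper quartile, and the other 6 were between the quartiles.

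**Figure D1:**
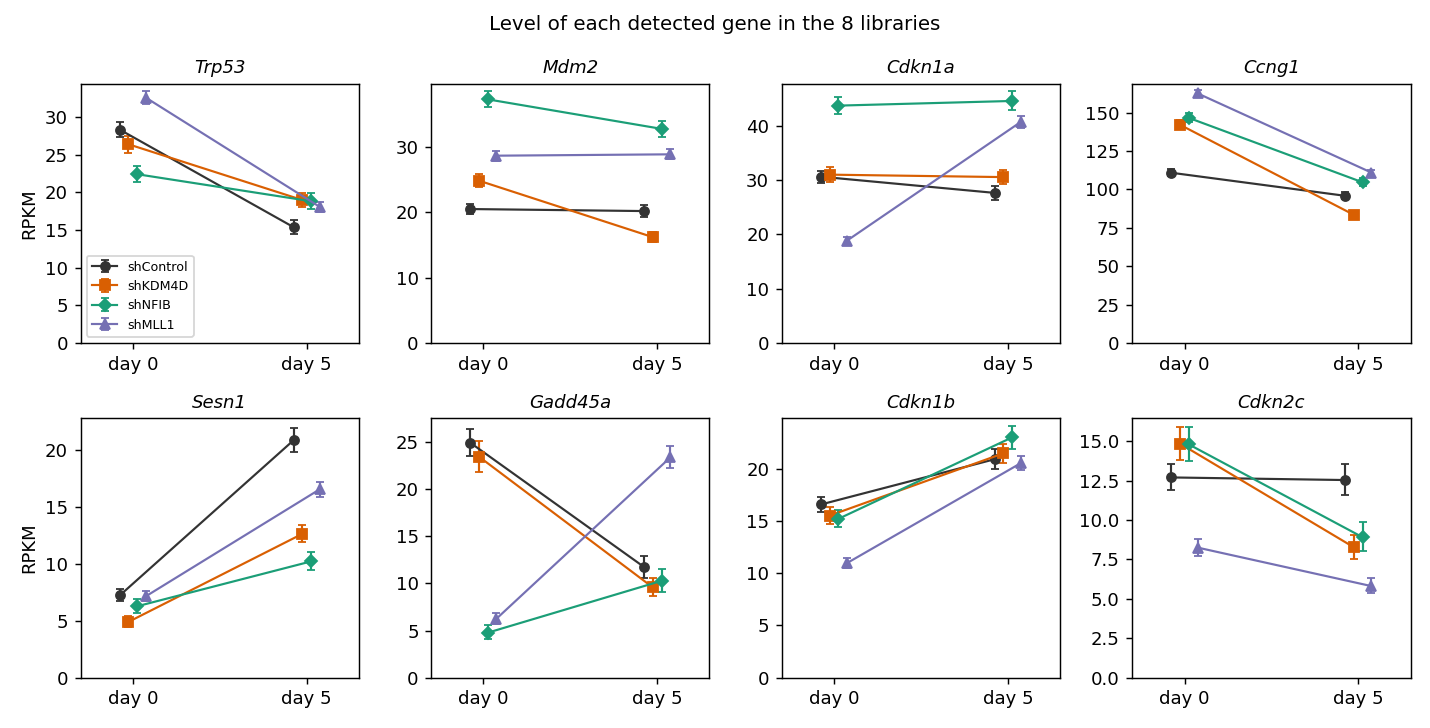
RPKM of the 8 members with reads at day 0 and day 5 in each of the 4 lines, 1 panel per gene with its own scale and 1 library per point, with exact 95% Poisson bars (counting error only). *Gadd45a* was 24.9 and 23.4 at day 0 in shControl and shKDM4D cells but 4.77 and 6.25 in shNFIB and shMLL1 cells, and *Sesn1* was higher at day 5 in every line.

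*Trp53*, the gene of p53 itself (chromosome 11 of GRCm38, 69580359 to 69591873), had a lower RPKM at day 5 than at day 0 in every line. Its RPKM at day 0 was 28.4 for shControl, 26.4 for shKDM4D, 22.4 for shNFIB and 32.6 for shMLL1 cells. At day 5 it was 15.4, 19, 18.8 and 18.1 in the same order. The 4 day 0 libraries lay above the 4 day 5 libraries with no overlap, and the day 5 values of the 3 knockdown lines did not differ beyond counting error. All 4 day 5 values were lower than all 4 day 0 values in 15.1% of the 11513 genes with an RPKM over 1, and *Trp53* was the 1 member with that order. The log2 ratio of day 5 to day 0 was -0.88 (95% interval -0.98 to -0.79) in shControl, -0.48 (-0.57 to -0.38) in shKDM4D, -0.25 (-0.36 to -0.14) in shNFIB and -0.85 (-0.92 to -0.78) in shMLL1 cells. None of these passed 2-fold, the size at which a change is called here, but with median-of-ratios scaling the change in shMLL1 cells did (-1.06). With 1 library per condition, no p-value can be given, and the intervals hold counting error but no spread between cultures. By RPKM, the change of shKDM4D cells was smaller than that of shControl cells by 0.41 (0.27 to 0.54) on the log2 scale. For shNFIB cells it was smaller by 0.63 (0.49 to 0.77). The shMLL1 change was within counting error of shControl (difference 0.03, -0.08 to 0.15). Taken as a ratio to *Gapdh*, *Trp53* was level between the days for shKDM4D cells (-0.01). The shNFIB change by that ratio (-0.82) was close to the shControl change (-0.85), and shMLL1 cells stood at -0.97. Against shControl at day 0, *Trp53* stood at -0.10 (-0.18 to -0.02) for shKDM4D, -0.34 (-0.42 to -0.25) for shNFIB and 0.20 (0.14 to 0.27) for shMLL1 cells on the log2 scale, and the shNFIB and shMLL1 values turned sign as a ratio to *Gapdh* (0.30 and -0.01). At day 5 the ratios were 0.30 (0.20 to 0.41), 0.29 (0.18 to 0.41) and 0.23 (0.14 to 0.33), the last of which was -0.12 as a ratio to *Gapdh*.

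*Mdm2* (chromosome 10, 117688875 to 117710758) was higher in shNFIB and shMLL1 cells than in shControl cells at both days. Its RPKM was 20.5 at day 0 and 20.2 at day 5 in shControl cells, and 24.8 and 16.2 in shKDM4D cells. In shNFIB cells it was 37.2 and 32.7, and shMLL1 cells had 28.6 and 28.8. Each of the last 4 libraries lay above the 4 libraries of shControl and shKDM4D cells. This grouping of lines was not among the comparisons set, and the share of all genes with this order was not counted. Whether the order is unusual can therefore not be told. Set against shControl, the log2 ratio at day 0 was 0.86 (0.79 to 0.94) for shNFIB and 0.48 (0.42 to 0.55) for shMLL1 cells. At day 5 these ratios were 0.70 (0.61 to 0.78) and 0.52 (0.44 to 0.59). None passed 2-fold in RPKM, and that of shNFIB cells at day 0 did as a ratio to *Gapdh* (1.5). All knockdown ratios at one day share a single shControl library and are not independent of each other. Between the days, *Mdm2* was flat in shControl (-0.02, -0.11 to 0.06) and shMLL1 cells (0.01, -0.04 to 0.06) and lower at day 5 in shKDM4D cells (-0.62, -0.71 to -0.53) and shNFIB cells (-0.19, -0.26 to -0.11). In the latter 2 lines *Trp53* and *Mdm2* both had a lower RPKM at day 5. In the former 2 the RPKM of *Trp53* was lower while that of *Mdm2* stayed within counting error. This split depended on the scaling. The *Mdm2* change was -0.20 in shMLL1 cells with median-of-ratios scaling and -0.13 in shControl cells with totals without rRNA-like genes. As a ratio to *Gapdh*, shKDM4D cells had -0.01 for *Trp53* and -0.15 for *Mdm2*.

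*Cdkn1a*, which encodes p21, the CDK inhibitor best known as a p53 target (chromosome 17, 29090976 to 29100727), rose in shMLL1 cells alone of the 4 lines at the 2-fold threshold. Its RPKM there was 18.8 at day 0, the lowest of the 8 libraries, and 40.7 at day 5. It was 30.6 and 27.6 in shControl cells, 31.0 and 30.5 in shKDM4D cells and 43.7 and 44.6 in shNFIB cells. The values of shKDM4D and shControl cells at day 0 and of shKDM4D cells at day 5 did not differ beyond counting error, and neither did both shNFIB values. The log2 ratio of day 5 to day 0 was 1.11 (1.04 to 1.18) in shMLL1 cells, against -0.15 (-0.23 to -0.06) in shControl, -0.02 (-0.11 to 0.06) in shKDM4D and 0.03 (-0.05 to 0.11) in shNFIB cells. The change in shMLL1 cells exceeded that in shControl cells by 1.26 (1.15 to 1.37) on the log2 scale. Against shControl, shMLL1 cells had a log2 ratio of -0.70 (-0.78 to -0.62) before the hormones and of 0.56 (0.48 to 0.63) at day 5, so the sign turned between the days. In shNFIB cells it was 0.51 (0.44 to 0.59), or 1.15 as a ratio to *Gapdh*, and 0.69 (0.60 to 0.78). The rise in shMLL1 cells stood close to the threshold and fell short of it under all 4 other scalings. It was 0.90 with median-of-ratios scaling, 0.99 as a ratio to *Gapdh*, and 1.00, just short of 2-fold, both after quantile normalization and with totals without rRNA-like genes. Antisense AC167363.2 covers 7.68% of the exon bases of *Cdkn1a* and was listed at 0 in every library.

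*Gadd45a* (chromosome 6, 67035096 to 67037457) encodes a stress-induced protein that binds the replication factor PCNA. It had the widest range of the members, 5.23-fold from the lowest to the highest library, and went in opposite directions in different lines. At day 0 its RPKM was 24.9 in shControl (1171 reads) and 23.4 in shKDM4D cells (808 reads), but 4.77 in shNFIB (157 reads) and 6.25 in shMLL1 cells (421 reads). At day 5 it was 11.7 for shControl, 9.57 for shKDM4D, 10.3 for shNFIB and 23.4 for shMLL1 cells. The 2 lines that were high at day 0 ended low, and shMLL1 cells ended about as high as shControl cells had begun.

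From day 0 to day 5, *Gadd45a* fell in shControl cells, with a log2 ratio of -1.09 (-1.25 to -0.92), and in shKDM4D cells (-1.29, -1.47 to -1.11). The opposite was seen in the other two lines, where it rose, with 1.11 (0.82 to 1.40) for shNFIB and 1.90 (1.75 to 2.06) for shMLL1 cells. The difference from the shControl change on the log2 scale was 2.19 (1.87 to 2.52) in shNFIB and 2.99 (2.76 to 3.22) in shMLL1 cells, and -0.21 (-0.45 to 0.04) in shKDM4D cells, within counting error. Against shControl cells at day 0, the log2 ratio was -2.39 (-2.64 to -2.14) in shNFIB cells and -2.0 (-2.16 to -1.83) in shMLL1 cells, and -0.09 (-0.22 to 0.04) in shKDM4D cells. At day 5 it was -0.19 (-0.42 to 0.03) in shNFIB cells and 0.99 (0.83 to 1.16) in shMLL1 cells, the latter a fold of 1.99. The call in shNFIB cells between the days ended with median-of-ratios scaling, with the ratio to *Gapdh* and with 1 added to each RPKM, and the call in shKDM4D cells ended with the ratio to *Gapdh*. The differences at day 0 passed 2-fold under every scaling tried. The antisense gene E230016M11Rik shares 19.1% of the exon bases of *Gadd45a*, and its own RPKM was between 0.0418 and 0.328. Whether the counting used strand is not given in the sources used here.

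*Sesn1* (chromosome 10, 41809935 to 41908424), which encodes sestrin 1, a stress protein that restrains the growth kinase complex mTORC1, was higher at day 5 in every line. Its RPKM at day 0 was 7.22 for shControl, 4.90 for shKDM4D, 6.27 for shNFIB and 7.15 for shMLL1 cells. At day 5 it was 20.9, 12.6, 10.2 and 16.5 in the same order. All 4 day 5 libraries lay above all 4 day 0 libraries. It rose past 2-fold in shControl (log2 ratio 1.53, 1.40 to 1.66), shKDM4D (1.37, 1.2 to 1.54) and shMLL1 cells (1.21, 1.11 to 1.31), and was 0.70 (0.53 to 0.88) in shNFIB cells. The change in shNFIB cells was less than that in shControl cells, with a difference of -0.83 (-1.04 to -0.61). Against shControl cells at day 5, *Sesn1* was -1.03 (-1.16 to -0.90) in shNFIB cells on the log2 scale, just past 2-fold. The ratios of shKDM4D cells (-0.72, -0.84 to -0.61) and shMLL1 cells (-0.33, -0.43 to -0.24) had the same sign. The call in shNFIB cells at day 5 ended with the ratio to *Gapdh* (-0.98) and with 1 added to each RPKM (-0.96).

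*Ccng1* encodes cyclin G1, which brings a phosphatase to MDM2 (chromosome 11, 40748552 to 40755311). It was the most abundant member and varied the least. Its RPKM at day 0 was 111 for shControl, 142 for shKDM4D, 147 for shNFIB and 163 for shMLL1 cells, and at day 5 it was 95.9, 83.4, 105 and 111. It was lower at day 5 in every line, with log2 ratios of -0.21 (-0.26 to -0.17) in shControl, -0.77 (-0.81 to -0.72) in shKDM4D, -0.49 (-0.53 to -0.44) in shNFIB and -0.55 (-0.58 to -0.52) in shMLL1 cells, none past 2-fold in RPKM. As a ratio to *Gapdh* the change in shNFIB cells was -1.05. At day 0 the knockdown lines were above shControl by 0.36 to 0.55 on the log2 scale, but the ratio to *Gapdh* turned the sign in shKDM4D cells (-0.04) and brought shNFIB cells past 2-fold (1.04). Of the genes with the printed elements, *Ccng1* and *Cdkn1a* were both lower at day 5 in shControl cells, *Cdkn1a* was within counting error in shKDM4D and shNFIB cells, where *Ccng1* was lower, and in shMLL1 cells *Cdkn1a* rose while *Ccng1* was lower.

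**Figure D2:**
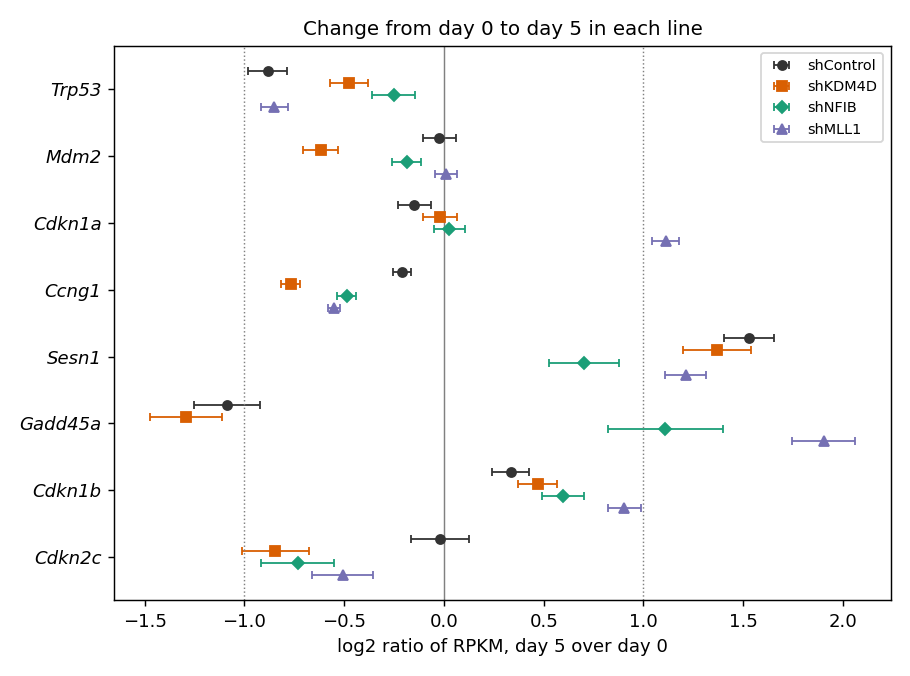
Log2 ratio of day 5 to day 0 RPKM of 8 members in each line, with 95% intervals for counting error and lines at 2-fold. *Gadd45a* is at -1.09 and -1.29 in shControl and shKDM4D cells and at 1.11 and 1.90 in shNFIB and shMLL1 cells, and *Cdkn1a* passes 2-fold in shMLL1 cells (1.11).

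*Cdkn1b*, which encodes p27, the inhibitor that holds resting cells out of the cycle (chromosome 6, 134920401 to 134925513), was higher at day 5 in every line. Its RPKM at day 0 was 16.6 for shControl, 15.5 for shKDM4D, 15.2 for shNFIB and 11 for shMLL1 cells, and at day 5 it was 20.9, 21.5, 23.0 and 20.5. The days did not overlap, and the spread between lines was smaller at day 5 than at day 0. All 4 day 5 values were above all 4 day 0 values in 22.5% of the genes tested, and among the members in *Cdkn1b* and *Sesn1*. The log2 ratio of day 5 to day 0 was 0.34 (0.24 to 0.43) in shControl, 0.47 (0.37 to 0.57) in shKDM4D, 0.60 (0.49 to 0.70) in shNFIB and 0.91 (0.82 to 0.99) in shMLL1 cells. Against shControl cells, shMLL1 cells stood at -0.60 (-0.69 to -0.50) on the log2 scale at day 0 and at -0.03 (-0.11 to 0.06) at day 5. None of these passed 2-fold. As a ratio to *Gapdh*, the change between the days was 0.36, 0.94, 0.03 and 0.79 in shControl, shKDM4D, shNFIB and shMLL1 cells. The ratio of shNFIB to shControl cells at day 0 was -0.13 in RPKM and 0.52 as a ratio to *Gapdh*.

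*Cdkn2c*, which encodes the INK4 inhibitor p18 (chromosome 4, 109660876 to 109667189), was level in shControl cells and lower at day 5 in the 3 knockdown lines. Its RPKM was 12.7 and 12.5 at day 0 and day 5 in shControl cells, 14.8 and 8.27 in shKDM4D, 14.8 and 8.91 in shNFIB, and 8.25 and 5.81 in shMLL1 cells. The log2 ratio of day 5 to day 0 was -0.02 (-0.17 to 0.13) in shControl cells, and -0.84 (-1.01 to -0.68), -0.73 (-0.92 to -0.55) and -0.51 (-0.66 to -0.35) in shKDM4D, shNFIB and shMLL1 cells. Less the shControl change, the shKDM4D change was -0.83 (-1.04 to -0.61), that of shNFIB cells -0.71 (-0.94 to -0.48) and that of shMLL1 cells -0.49 (-0.70 to -0.28). At day 5 the log2 ratio to shControl cells was -0.60 (-0.77 to -0.43) in shKDM4D, -0.49 (-0.68 to -0.31) in shNFIB and -1.11 (-1.27 to -0.95) in shMLL1 cells. Among these RPKM ratios only the last passed 2-fold, and it was -0.99 with 1 added to each RPKM. As a ratio to *Gapdh*, the change between the days in shNFIB cells was -1.30. The line with *Cdkn2c* level between the days was also the line with adipocyte markers at 796 in sum, and the part of fat cells in this difference was not tested. In these bulk libraries, a change in the number of cells that express a gene and a change in RNA per cell cannot be told apart.

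*Cdkn2a* (chromosome 4, 89274471 to 89294653) and *Cdkn2b* (chromosome 4, 89306299 to 89311039), which lie next to each other, were listed at 0 in all 8 libraries. *Cdkn2a* gives rise to p16 and, through another first exon, to p19ARF, which binds MDM2, and a value per gene does not separate them. Over the 8 libraries together, 3 reads would be an RPKM of 0.0129 for *Cdkn2a* and 0.0109 for *Cdkn2b*, which is the limit that a count of 0 allows. A gene at 0 in all 8 libraries was not rare, as 4685 of 21832 protein coding genes were.

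The genes around them were read out to examine the region further. *Mtap* (chromosome 4, 89137122 to 89181081), a methionine salvage enzyme on the other side of *Cdkn2a* from *Cdkn2b*, had an RPKM between 138 and 196 and 106280 reads in all. Between *Mtap* and *Cdkn2a*, the small nucleolar RNA gene Gm26490 had 2 reads in all libraries together and the long noncoding RNA gene Gm12606 had 28. Beyond *Cdkn2b*, Gm12609 and Gm27580 had 0 reads, Gm12610 had 26 reads, and *Dmrta1* (89679436 to 89694772) had 62 reads, of which 41 were in shMLL1 cells at day 5. *Mtap* was thus expressed in every library beside 2 genes without a read. Whether the *Cdkn2a* and *Cdkn2b* sequences were present in these cells was not measured.

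**Figure D3:**
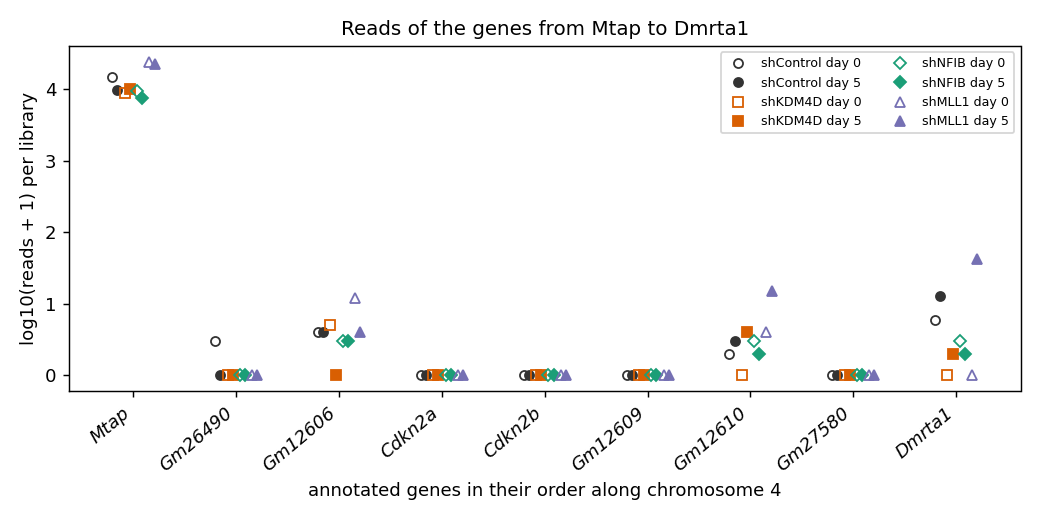
Reads, as log10(reads + 1), of *Cdkn2a*, *Cdkn2b* and the genes around them on chromosome 4 in the 8 libraries, in genomic order. *Mtap* has 7441 to 24164 reads per library, *Cdkn2a* and *Cdkn2b* have 0, and the other neighbours have at most 41.

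The members past 2-fold were counted beside all genes. In the count of day 5 against day 0 in shControl cells, 1 of the 8 members tested rose (*Sesn1*) and 1 fell (*Gadd45a*), against 13% and 8.56% of the 11513 genes tested. In shKDM4D cells the same genes gave 1 rise and 1 fall, against 12.8% and 8.44% of all genes. In shNFIB cells 1 rose (*Gadd45a*) and 0 fell, against 12.6% and 4.96%. In shMLL1 cells 3 rose (*Cdkn1a*, *Sesn1* and *Gadd45a*) and 0 fell, against 20.4% and 6.89%. The median log2 ratio, with 0.1 added to each RPKM, was -0.08, -0.54, -0.08 and 0.45 over the members in shControl, shKDM4D, shNFIB and shMLL1 cells, against 0.03, 0.03, 0.09 and 0.17 over all genes tested.

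Against shControl cells at day 0, 0 members were past 2-fold in shKDM4D cells, where 1.98% of all genes were higher and 4.26% lower. *Gadd45a* was the 1 member lower in shNFIB cells, where 2.95% were higher and 6.05% lower, and also the 1 member lower in shMLL1 cells, where 1.67% were higher and 7.43% lower. At day 5, 0 members passed in shKDM4D cells (1.88% of all genes higher, 4.57% lower), *Sesn1* was lower in shNFIB cells (5.54% higher, 5.67% lower) and *Cdkn2c* was lower in shMLL1 cells (5.25% higher, 4.02% lower). With 8 members tested, a single call is 12.5% of them, and counts of 0 or 1 lie on either side of shares of this size. The members' medians were -0.04, 0.05 and -0.30 at day 0 in shKDM4D, shNFIB and shMLL1 cells, against 0.00, 0.03 and -0.07 for all genes, and -0.25, 0.13 and 0.22 at day 5, against 0.01, 0.09 and 0.07.

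**Figure D4:**
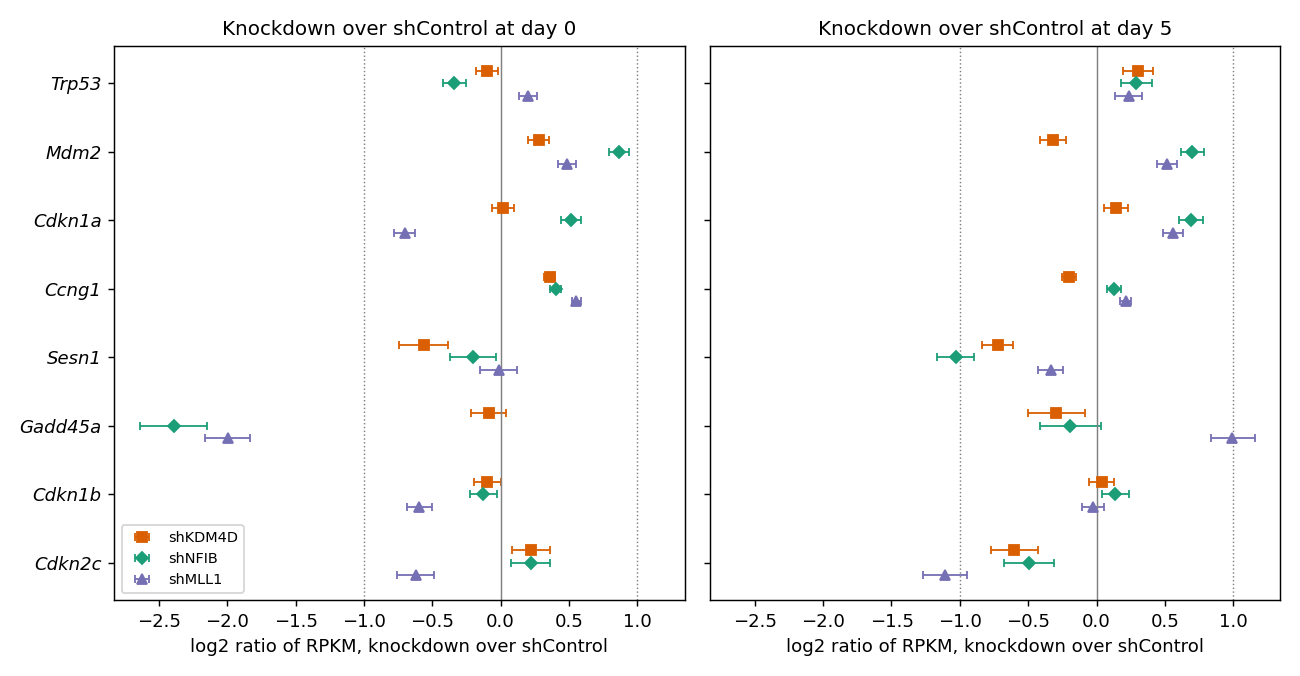
Log2 ratio of each knockdown line to shControl cells at day 0 and day 5 for 8 members, with 95% intervals for counting error and lines at 2-fold. *Gadd45a* at day 0 is at -2.39 in shNFIB and -2.0 in shMLL1 cells, and 9 ratios whose interval excludes 0 (*Trp53* in 3 comparisons, *Ccng1* in 2, and *Mdm2*, *Cdkn2c*, *Cdkn1b* and *Sesn1* in 1 each) have the opposite sign as a ratio to *Gapdh*.

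The closest relatives of the members were examined next, to see whether a family went as its member did. Of 10 such genes, 8 passed the RPKM threshold of 1. *Cdkn1c*, which encodes the third CIP/KIP protein p57, had at most 1 read per library, and *Trp73* had at most 3. Past 2-fold from day 0 to day 5, the number that rose was 3 for shControl, 2 for shKDM4D, 1 for shNFIB and 5 for shMLL1 cells, and 0 fell in any line. Of all genes tested, 13%, 12.8%, 12.6% and 20.4% rose in the same order, while 8.56%, 8.44%, 4.96% and 6.89% fell.

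Among the sestrins, *Sesn3* rose in all 4 lines, with log2 ratios of 1.43 for shControl, 1.52 for shKDM4D, 1.02 for shNFIB and 1.18 for shMLL1 cells, while *Sesn1* passed 2-fold in 3 of them. The *Sesn3* ratio in shNFIB cells was close to the threshold and was not checked under other scalings. *Sesn2*, also a stress gene, followed another course. Its RPKM at day 0 was 8.30 and 7.88 in shControl and shKDM4D cells but 3.92 and 4.14 in shNFIB and shMLL1 cells, with log2 ratios to shControl of -1.08 and -1.0. At day 5 it was 5.98, 8.96, 7.25 and 10.3 in the 4 lines, and it rose in shMLL1 cells (1.32). The lines with low *Sesn2* at day 0 were the lines with low *Gadd45a*.

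*Gadd45b* and *Gadd45g*, the other two genes of the GADD45 family, did not have the day 0 pattern of *Gadd45a*. *Gadd45b* RPKM at day 0 was 9.69 for shControl, 6.31 for shKDM4D, 8.67 for shNFIB and 5.44 for shMLL1 cells, and it passed 2-fold in 0 comparisons. *Gadd45g* at day 0 was 19.3, 23.0, 26.4 and 16.0 in the same order, and it rose from day 0 to day 5 in shMLL1 cells (log2 ratio 1.13).

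*Ccng2*, the relative of *Ccng1*, was higher at day 5 in every line where *Ccng1* was lower, with log2 ratios of 1.55, 0.86, 0.91 and 2.18 in shControl, shKDM4D, shNFIB and shMLL1 cells. *Cdkn2d*, the INK4 gene of p19, and *Mdm4*, the relative of *Mdm2*, passed 2-fold in 0 comparisons. *Cdkn2d* was the second INK4 gene with reads, and its RPKM was between 7.72 and 16.3. *Trp63*, which encodes a relative of p53, was low at an RPKM of at most 1.54. It rose in shControl (2.27), shKDM4D (1.61) and shMLL1 cells (1.55), and at day 5 its log2 ratio to shControl was -2.63 in shNFIB and -1.29 in shMLL1 cells. Only the day 5 libraries of shControl (1.54) and shKDM4D cells (1.25) had a *Trp63* RPKM over 1. Its high values at day 5 thus also put it among the genes tested, and it is counted above as a relative that rose. At day 0 its RPKM was 0.134 in shNFIB cells, already below the 0.318 of shControl cells.

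**Figure D5:**
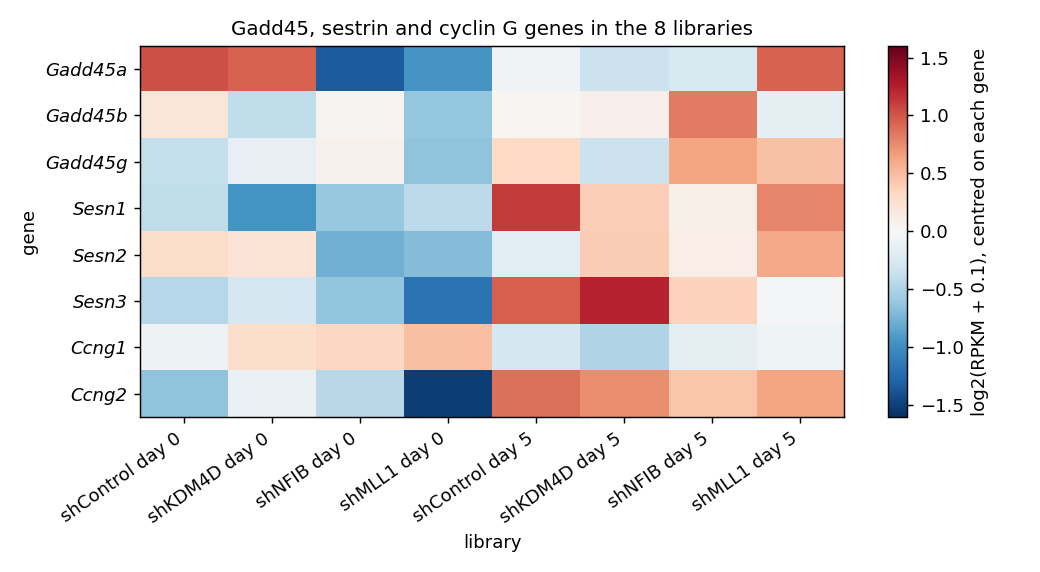
Log2(RPKM + 0.1) of the GADD45, sestrin and cyclin G genes in the 8 libraries, centred on each gene's mean, from -1.5 to 1.24. *Gadd45a* and *Sesn2* are low at day 0 in shNFIB and shMLL1 cells, *Gadd45b* and *Gadd45g* are not low in both, and *Ccng2* is higher at day 5 in each line where *Ccng1* is lower.

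Other target genes of p53 showed no common direction. Of 37 listed, 31 were tested, and from day 0 to day 5 those that rose and fell numbered 6 and 3 in shControl, 6 and 3 in shKDM4D, 4 and 2 in shNFIB and 8 and 1 in shMLL1 cells. Their median log2 ratios were -0.05, -0.07, 0.11 and 0.46, against the medians of all genes given above. Of all genes tested, 13%, 12.8%, 12.6% and 20.4% rose in the same order, and 8.56%, 8.44%, 4.96% and 6.89% fell. The 3 of this list that fell in shControl cells were *Aen* (RPKM 9.17 to 3.26), *Tigar* (2.16 to 1.03) and *Pidd1* (1.15 to 0.49). *Btg2*, an antiproliferative gene, rose in shControl (2.17), shKDM4D (1.91) and shMLL1 cells (2.37) and was 0.60 in shNFIB cells. *Cd82*, a membrane protein gene, rose in all 4 lines (1.22, 1.35, 1.90 and 1.91). *Trp53inp1*, whose product binds kinases that act on p53, rose in shControl (1.5), shKDM4D (1.15) and most in shMLL1 cells (2.70), where its RPKM went from 4.27 to 27.8.

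In the same list, *Igfbp3*, which encodes a binding protein for insulin-like growth factors, rose in shControl (1.80), shKDM4D (4.43) and shMLL1 cells (2.78), from an RPKM of 1.08 to 3.77, of 0.818 to 17.6 and of 0.878 to 6.02, and had 1 read in each shNFIB library. *Thbs1*, the gene of thrombospondin, was above shControl in shKDM4D and shNFIB cells at day 0 (1.82 and 2.70) and in all 3 knockdown lines at day 5 (1.81, 2.10 and 1.66). *Perp*, a gene of a membrane protein of cell contacts, had 65 and 49 reads in shControl cells at day 0 and day 5, 0 and 0 in shKDM4D, 2 and 12 in shNFIB, and 1 and 21 in shMLL1 cells. Only shControl cells had a *Perp* RPKM over 1 (1.25 and 1.30), so against shControl it could be called only as lower. It is among the genes counted as lower below, and that call is no independent result. Against shControl cells at day 0, the other targets gave 1 higher and 2 lower in shKDM4D, 3 and 2 in shNFIB, and 0 and 6 in shMLL1 cells. At day 5 these counts were 2 and 1, 5 and 3, and 4 and 1. The shares of all genes in these comparisons are given above with the members. *Cdkn1a* and *Trp53inp1* were both lower in shMLL1 than in shControl cells at day 0 (-0.70 and -1.29), and so was *Fas*, a death receptor gene (-1.68). *Mdm2* (0.48) and *Ccng1* (0.55) were higher in the same comparison. There the median of the 31 other targets tested was -0.09, against -0.07 for all genes.

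Of 15 genes that act on p53, 0 rose between the days in any line, and 2, 3, 2 and 1 fell in shControl, shKDM4D, shNFIB and shMLL1 cells. Their medians were -0.23, -0.24, -0.25 and -0.40. Of all genes tested, 13%, 12.8%, 12.6% and 20.4% rose and 8.56%, 8.44%, 4.96% and 6.89% fell in the same order. Their medians were 0.03, 0.03, 0.09 and 0.17. *Chek1*, which encodes a checkpoint kinase of DNA replication, fell in all 4 lines (-2.17, -2.08, -1.03 and -1.32). *Atm*, the kinase gene of the response to DNA breaks, fell in shControl (-1.27), shKDM4D (-1.27) and shNFIB cells (-1.01).

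The cyclins, CDKs and pocket proteins that the CDK inhibitors act on or through had a negative median log2 ratio of day 5 to day 0 in every line. Of 13, the number that fell was 5 for shControl, 4 for shKDM4D, 2 for shNFIB and 3 for shMLL1 cells, with 0 that rose, and the medians were -0.88, -0.67, -0.37 and -0.69. *Ccnd1*, the gene of cyclin D1, had an RPKM of 66.5, 78.2, 130 and 82.1 at day 0 and 28.0, 36.1, 65.3 and 32.4 at day 5. At day 5 *Ccne1* (1.30), *Ccnd1* (1.22) and *Ccne2* (1.18) were above shControl in shNFIB cells past 2-fold. Of 12 proliferation markers, the number that fell was 12 for shControl, 11 for shKDM4D, 5 for shNFIB and 10 for shMLL1 cells, and their summed RPKM went from 500 to 189, from 634 to 238, from 628 to 285 and from 671 to 282. For this list and the 13 genes above, the shares of all genes that fell were 8.56%, 8.44%, 4.96% and 6.89% in the same order. The shares of all genes that rose were 13%, 12.8%, 12.6% and 20.4%. The part of cell division in the lower *Trp53* at day 5 was not tested.

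The genes whose pattern over the 8 libraries was closest to each member were found from the root mean square difference of centred log2(RPKM + 0.1). For *Trp53* they were *Apex1*, *Parp1* and *Ptma*, at 0.08 to 0.09. For *Cdkn1b* they were *Sirt2* (0.05), *Selenok* and *Dhx57*, and for *Ccng1* they were *Cep89* (0.06), *Jpt1* and *Mrpl18*. *Mdm2* was closest to *Slc25a25* (0.11), *Pigw* and *Ubxn2a*, *Cdkn1a* to *Mrgbp* (0.14), *Lrrc57* and *Serpinb9*, and *Sesn1* to *Jcad* (0.15), *Echdc2* and *Rmdn1*. *Cdkn2c* and *Gadd45a* had no gene as near. *Cdkn2c* was closest to *Me1* (0.20), *Glud1* and *Rb1* (0.21), and *Gadd45a* to *Angptl6* (0.26), *Apobec1* (0.37) and *Vldlr* (0.39). *Angptl6* rested on few reads, with 2 in shNFIB cells at day 0 and 69 in shMLL1 cells at day 5. No other member was among the 3 genes closest to any member.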

How the data were processed

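Mapping was done by the authors against GRCm38 in CLC Genomics Workbench, and they deposited 1 RPKM value per gene and library, normalised to exon length and mapped reads. The methods also speak of quantile normalisation, which was not visible in the values. Whole reads were recovered with GENCODE M21 exon lengths, and between 96.2% and 96.6% of values came out within 0.02 of a whole read. *Fas* and *Kmt2a* did not, so they are given as RPKM. RPKM corrects for total reads only, so a few very abundant RNAs can move every other value.

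Genes with RPKM over 1 in at least 1 of 8 libraries were tested. A change was called past 2-fold with no pseudocount. Intervals are exact 95% Clopper-Pearson intervals of read ratios (Python 3.11.15, scipy 1.17.1), and the method was tested on simulated data. Intervals of differences between log2 ratios are approximate. Reads carried no molecular identifiers, so intervals and floors (3 reads) cover counting error only.

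Named from the other lists were at most the 4 genes with the largest change past 2-fold in a comparison, all relatives of the members and genes around *Cdkn2a*, and the 3 closest genes per member. *Cdkn2a* neighbours without a protein product, genes given as contrasts below 2-fold, and *Aen*, *Tigar* and *Pidd1* were added after values were seen. Members and lists were chosen with earlier results of these data known. Alternatives were quantile normalization, median-of-ratios scaling, ratio to *Gapdh*, totals without rRNA-like genes, pseudocounts of 0.1 and 1, and other filters. Single-gene ratios under them were computed for the members only. Calls close to 2-fold in other genes, such as *Sesn3*, *Chek1* and *Atm* in shNFIB cells, were not checked this way.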

Additional observations from a re-analysis of the deposited data

Results flagged for a closer look

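The change of *Cdkn1a* from day 0 to day 5 had opposite signs in different lines, with a log2 ratio of 1.11 in shMLL1 cells and -0.15 in shControl cells. The change of *Gadd45a* did as well, with 1.90 in shMLL1 cells and -1.29 in shKDM4D cells. Each line had 1 library per day, so the difference between lines was not tested against replicate spread.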

How the results depend on the processing

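No paired analysis was possible because each comparison set 1 library against 1. Day 0 and day 5 share the line, but the 4 lines are different knockdowns and not replicates, and no day effect over them was fitted. Leaving out a replicate was not possible for the same reason. The number of members past 2-fold stayed within 1.5 times under quantile normalization, totals without rRNA-like genes, a pseudocount of 0.1, no filter and a filter at RPKM over 2. As a ratio to *Gapdh* it was 1 in place of 2 for day 5 against day 0 in shKDM4D cells, 2 in place of 1 in shNFIB cells, 4 in place of 1 for shNFIB against shControl at day 0, and 0 in place of 1 at day 5. With median-of-ratios scaling it was 0 in place of 1 for day 5 against day 0 in shNFIB cells, where *Gadd45a* stood at 1.00, just short of 2-fold. With 1 added to each RPKM it was 0 in place of 1 in that comparison, and also for shNFIB and shMLL1 against shControl at day 5. The cause of the moves with *Gapdh* was not tested.

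Of the 80 log2 ratios of members, 54 moved beyond counting error as a ratio to *Gapdh*, 22 with median-of-ratios scaling, 16 with quantile normalization, 13 without rRNA-like genes and 1 with a pseudocount of 1. Of those whose interval excluded 0, 9 turned sign, all as a ratio to *Gapdh*, and ratios within counting error of 0 turned sign under other scalings too. An equal count can hold different members: with median-of-ratios scaling shMLL1 cells lost *Cdkn1a* (0.90) and gained *Trp53* (-1.06) between the days. Of the 24 differences in change from shControl, 21 moved with *Gapdh*, 5 with median-of-ratios scaling and 2 with quantile normalization, a check added after the data were seen. The median of all genes shifted by 0.17 from day 0 to day 5 in shMLL1 cells (log2 RPKM), and by -0.04 with median-of-ratios scaling. Depth limits *Kdm4d*, *Perp*, *Igfbp3* in shNFIB cells and *Angptl6*.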
